A study of Mus musculus with 8 samples.

Results

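The mouse genome holds a large number of genes named Zfp, for zinc finger protein, and sorted Paneth cells, the zinc-rich secretory cells at the base of the small intestinal crypts, contained transcripts of many of them. The genes described here were selected on their counts and not on a response: a gene was taken when it was protein-coding, its symbol was Zfp followed by a digit, and its raw count was 10 or more in each of 8 mice. This rule found 198 of the 418 Zfp-named protein-coding genes in the table (47.4%), 50 of which had no count in any mouse and 170 of which had counts below the minimum in at least 1 mouse. The 8 libraries held RNA of Paneth cells that were sorted by FACS out of small intestine of C57BL/6J animals, with no engineered allele in the labels, 4 fed standard chow (control) and 4 fed zinc depleted chow (zinc deficient) ad libitum for 7 weeks. The labels give neither the age nor the sex of the mice, and the depletion was through the diet, so that every tissue of the animal met it. Each library is labelled as a separate replicate, and p-values measure the spread between these replicates.

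A zinc finger is a short protein fold held together by a zinc ion, which is bound by cysteine and histidine residues. In the C2H2 type a pair of cysteines and a pair of histidines bind the ion, and proteins with a string of such fingers read DNA sequence base by base. In the CCCH type 3 cysteines and 1 histidine bind it, and the fingers of the Zfp36 group grip single-stranded AU-rich elements in messenger RNA. Many C2H2 proteins carry a KRAB domain before their fingers, which recruits the corepressor Trim28 and, with it, the machinery that marks DNA as silent, above all at retroelements. Both types of finger need zinc, but a transcript level says nothing of whether the protein holds its zinc.

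The zinc ligands can be read in the coding sequences (GENCODE M39, GRCm39), shown 5′ to 3′ on the coding strand with the codons of the zinc-binding cysteines and histidines in capitals. The CCCH fingers of the RNA-binding group are shown because Zfp36l2 had the smallest adjusted p of all 198 genes in the comparison of diets. They lie within 1 coding exon each, at chr7:28077469-28077642 for Zfp36, chr12:80156849-80157022 for Zfp36l1 and chr17:84493982-84494155 for Zfp36l2, all on the minus strand.
Zfp36: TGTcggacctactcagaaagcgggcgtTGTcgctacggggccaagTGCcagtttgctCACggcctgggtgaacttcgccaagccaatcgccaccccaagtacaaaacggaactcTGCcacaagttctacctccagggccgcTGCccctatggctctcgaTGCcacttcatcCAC
Zfp36l1: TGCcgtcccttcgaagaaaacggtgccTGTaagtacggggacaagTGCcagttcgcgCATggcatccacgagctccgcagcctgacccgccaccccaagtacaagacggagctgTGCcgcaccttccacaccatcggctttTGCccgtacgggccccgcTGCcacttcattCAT
Zfp36l2: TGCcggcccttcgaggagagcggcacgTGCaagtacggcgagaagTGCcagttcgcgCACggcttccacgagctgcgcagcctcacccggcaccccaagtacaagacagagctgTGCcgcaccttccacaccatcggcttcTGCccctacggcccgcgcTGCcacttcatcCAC
Over the 58 residues that these 174 bases encode, Zfp36l1 and Zfp36l2 share 54 (93.1%), whereas Zfp36 shares 39 with Zfp36l1 (67.2%) and 40 with Zfp36l2 (69.0%). At the level of bases, the stretches of Zfp36l1 and Zfp36l2 are 87.4% identical. The first C2H2 finger of 4 genes shows the other type. These genes were among those with larger fitted differences between diets, but none passed the test between diets. The fingers lie at chr6:47843150-47843212 (plus strand) for Zfp398, chr6:47881860-47881922 (plus strand) for Zfp282, chr13:64293348-64293410 (minus strand) for Zfp367 and chr9:20349630-20349692 (minus strand) for Zfp26, each of 63 bases within 1 coding exon.
Zfp398: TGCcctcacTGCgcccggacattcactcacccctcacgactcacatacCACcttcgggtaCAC
Zfp282: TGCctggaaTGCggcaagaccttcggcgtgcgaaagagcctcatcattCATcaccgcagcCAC
Zfp367: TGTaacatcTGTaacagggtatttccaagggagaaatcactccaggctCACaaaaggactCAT
Zfp26: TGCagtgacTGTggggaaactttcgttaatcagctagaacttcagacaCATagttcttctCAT
The capitals stand at the same places in all 4, with 2 residues between the cysteines, 12 residues up to the first histidine and 3 residues between the histidines.

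The 198 proteins held 1963 matches to the C2H2 pattern, with a median of 9 fingers in a protein and a maximum of 36 in Zfp142. Zfp462 followed with 33, Zfp729b with 30 and Zfp236 with 29. A KRAB domain was found in 91 proteins (46.0%) by a profile search and in 70 (35.4%) by a residue pattern, and the profile search was used to group the genes, a choice made after both results were seen. KRAB proteins had a median of 11 fingers and the others a median of 7. Their transcripts also differed in composition, with a median GC content of 41.3% for the KRAB genes and 49.8% for the others. Of the 220 Zfp-named genes that did not reach 10 counts in every mouse, 158 (71.8%) had a KRAB domain by the same profile search. The count minimum therefore left a set in which KRAB genes were a smaller share than among all 418 Zfp-named genes (59.6%).

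Of the 198 proteins, 8 had no match to the C2H2 pattern. These were Zfp36, Zfp36l1 and Zfp36l2, with 2 CCCH fingers each, Zfp703 and Zfp503, related transcriptional repressors of the NET family whose zinc finger is of an atypical form, and Zfp330, Zfp839 and Zfp1006. Zfp1006 encodes a protein of 88 residues that matched the KRAB profile and held no finger.

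**Figure D1:**
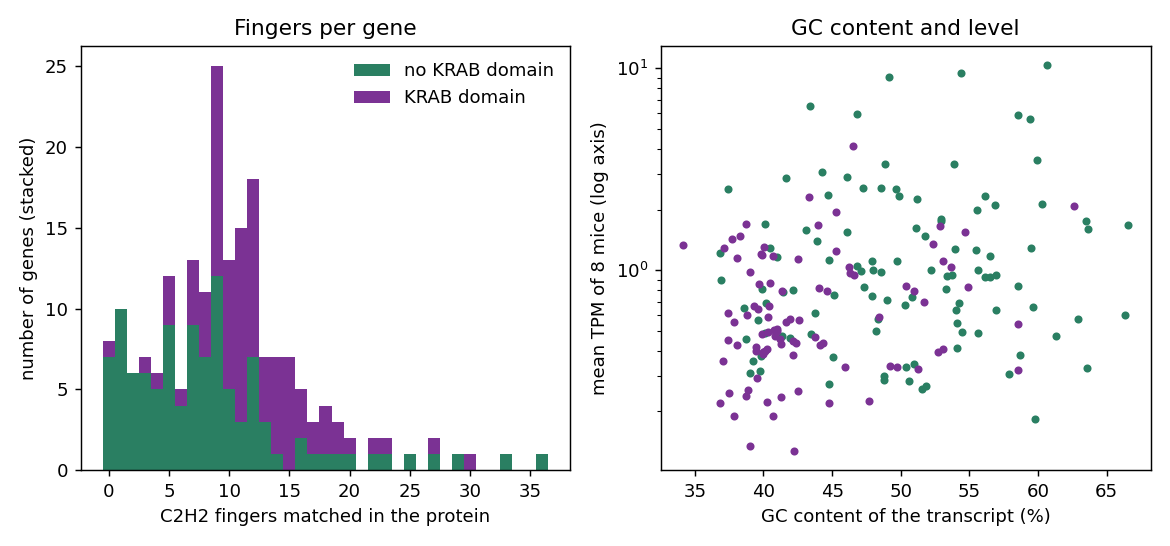
The left panel counts genes by the number of C2H2 fingers matched in the protein, with KRAB genes stacked on the others, and the right panel plots the mean TPM over 8 mice (log axis) against the GC content of the transcript in percent, in the same colours. KRAB genes sit at higher finger numbers (median 11 against 7) and at lower GC content (median 41.3% against 49.8%).

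The genes also shared positions. Of the 198 genes, 82 lay in 12 groups of 4 or more in which neighbours were at most 1 Mb apart, and 61 of these 82 had a KRAB domain, whereas 81 genes had no other of the 198 within 1 Mb. Chromosome 7 carried 44 of the genes and chromosome 17 carried 25. The group with the most genes, at chr17:21229165-23783215, held 14 genes from Zfp160 to Zfp213, 13 of them with a KRAB domain. The group at chr13:67487370-67877299 held 9 genes (Zfp953, Zfp429, Zfp874a, Zfp874b, Zfp748, Zfp729b, Zfp729a, Zfp738 and Zfp65), all 9 with a KRAB domain.

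Some neighbours are near-copies, which matters for how reads are assigned. The coding sequence of 4 of the 198 genes was at least 90% identical to that of another Zfp-named gene, and of 16 genes at least 80%. Zfp955a was 98.2% identical to Zfp955b, a gene just below the count minimum, and Zfp874a and Zfp874b were 95.5% identical to each other. Zfp959 was 92.2% identical to Zfp119b. Zfp110 and Zfp369, both known as interactors of the neurotrophin receptor p75, were 89.1% identical although they lie on chromosomes 7 and 13. The counts of these genes are uncertain, since how reads matching several genes were counted is not given in the sources used here. Exons of 43 of the 198 genes overlapped exons of another protein-coding gene, 37 on the opposite strand and 9 on the same strand, and whether strand was used in the counting is not given either.

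The level of a gene was first compared between genes as TPM (transcript counts divided by the exon length of the gene and scaled to a fixed total per library). Together the 198 genes took 0.179% of all counts, and their median level was 0.741 TPM. Only 71 genes reached 1 TPM, and 7 reached 5 TPM. The 10 genes with the highest TPM held 27.3% of the summed TPM of the 198. As the count minimum chose the genes, these levels are a description. The fixed total of each library includes the Defa (α-defensin) genes, which took 35.7% to 50.9% of the counts, so TPM values depend on their share.

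Zfp703 was highest at 10.4 ± 5.75 TPM (mean ± SD, n = 8 mice), with a range of 4.84 to 23.6 TPM. TPM were not adjusted for the composition of the libraries, so these SDs and ranges also hold differences between whole libraries. The next were Zfp36l2 at 9.45 ± 5.53 TPM and Zfp36l1 at 9.07 ± 5.15 TPM, whose products bring the CCR4-NOT deadenylase to AU-rich messenger RNAs and shorten their life. The means of these 3 genes differed by less than their SDs, and their order within each mouse was not tested. Zfp706, a gene for a small protein of 76 residues, followed at 6.5 ± 1.45 TPM. Zfp106, an RNA-binding protein needed in motor neurons and muscle, reached 5.91 ± 2.83 TPM. Zfp503, the relative of Zfp703 in the NET family, reached 5.86 ± 3.71 TPM, and Zfp598, a ubiquitin ligase that senses collided ribosomes, 5.58 ± 3.06 TPM. The means of Zfp706, Zfp106, Zfp503 and Zfp598 also differed by less than their SDs. Their order within each mouse was not tested either. Zfp110 (4.11 ± 1.5 TPM), Zfp768 (3.51 ± 1.36 TPM) and Zfp664 (3.37 ± 1.5 TPM) completed the 10.

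Zfp110 was the only KRAB gene among the 10. The median level was 0.556 TPM for KRAB genes and 0.934 TPM for the others, and 23 of 91 KRAB genes against 48 of 107 others reached 1 TPM. No KRAB gene reached 5 TPM. Without division by length (CPM, counts scaled to a fixed total with libraries adjusted by the TMM method of edgeR), 7 of the same 10 genes were among the 10 highest and Zfp106 came first at 83.3 CPM, so that the order at the top depends on the unit. With this adjustment Zfp703 ran from 25.9 to 56.3 CPM between mice.

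**Figure D2:**
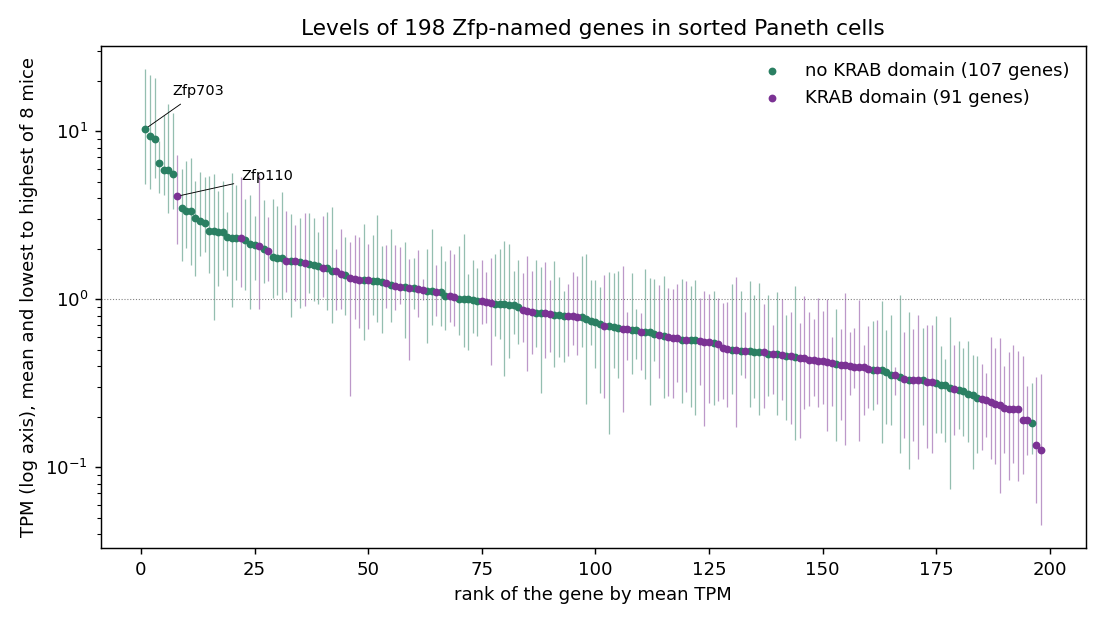
The mean TPM of each of the 198 genes over 8 mice (points, log axis) is plotted in order of rank, with lines from the lowest to the highest mouse. The median is 0.556 TPM for KRAB genes and 0.934 TPM for the others, and Zfp110 at 4.11 TPM is the only KRAB gene among the 10 highest.

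At the lower end, 9 genes had exactly 10 counts in their lowest mouse, among them Zfp1006, Zfp157 and Zfp316, and their mean levels ran from 0.135 TPM (Zfp738) to 0.455 TPM (Zfp788). Just outside, 7 genes had 9 counts in their lowest mouse, among them Zfp175, Zfp524 and Zfp54, with mean levels between 0.159 TPM (Zfp599) and 0.582 TPM (Zfp524). The levels on both sides of the minimum overlap.

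The spread between mice was then taken over all 8, whatever the diet. The median SD of log2(CPM + 1) over the 8 mice was 0.29 for the 198 genes. Zfp787 varied least, with an SD of 0.08 and values of 14.3, 12.3, 13.5 and 12.1 CPM in the control and 13.703, 13.261, 12.602 and 13.656 CPM in the zinc deficient mice. Zfp260 (SD 0.11) and Zfp740 (SD 0.14) followed. Zfp629 (SD 0.62), Zfp764 (SD 0.55) and Zfp157 (SD 0.53) varied most, and Zfp764 and Zfp157 had as few as 11 and 10 counts in a mouse.

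Before the diets were compared, 1 library was seen to stand apart. The 198 genes took 0.308% of the counts in control mouse 1, and 0.211%, 0.157% and 0.154% in control mice 2, 3 and 4. In zinc deficient mice 1 to 4 they took 0.154%, 0.129%, 0.180% and 0.132%. The 95% Wilson interval of the share in control mouse 1 ran from 0.304% to 0.311%, which covers counting error only. Control mouse 1 also had the largest TMM factor, 1.57 against 0.719 to 1.16 in the other mice, and the smallest share of Defa (α-defensin) counts, 35.7% against 41.5% to 50.9%. After TMM scaling the summed levels were 1961, 1823, 1694 and 1625 CPM in the control and 1652, 1791, 1645 and 1560 CPM in the zinc deficient mice, and the diets overlapped. The KRAB genes gave 506, 506, 475 and 459 CPM of these sums in the control mice and 470, 522, 444 and 425 CPM in the zinc deficient mice. In bulk samples such as these, fewer cells of a type and less RNA per cell cannot be told apart.

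**Figure D3:**
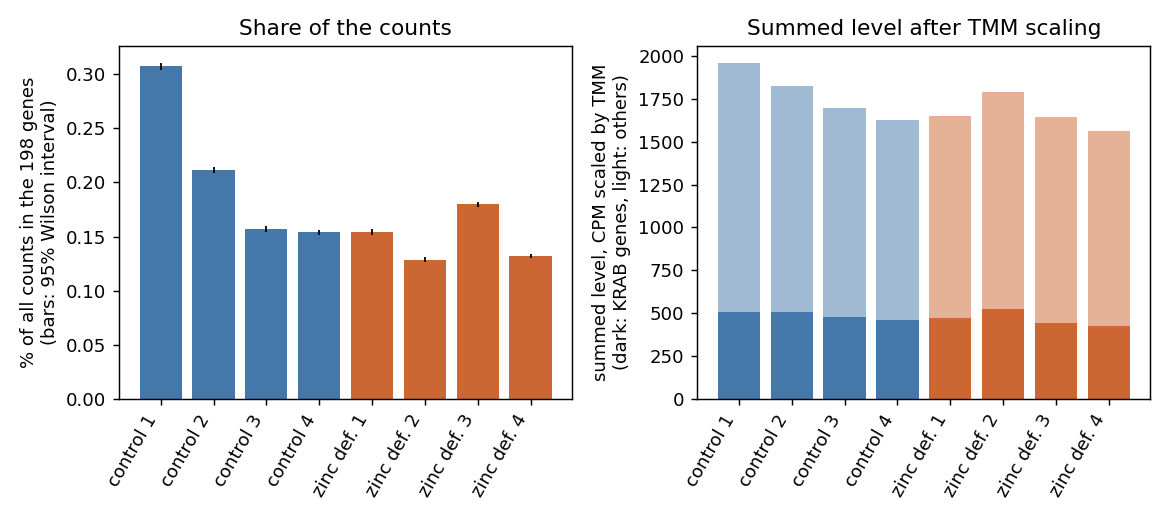
The left panel shows the percent of all counts that the 198 genes took in each mouse with its 95% Wilson interval, and the right panel their summed level in CPM scaled by TMM, split into KRAB (dark) and other genes (light). Control mouse 1 stands at 0.308% against at most 0.211% in the other mice, and after scaling at 1961 CPM against at most 1823 CPM.

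Library sizes ranged from 8557690 to 12648005 counts. By library size alone, 3 counts correspond to 0.237 to 0.351 CPM, without the TMM factor that the other CPM values carry. Markers of Paneth cells (Lyz1, Defa24, Mmp7 and 5 others) were all tested and high, with Lyz1 at 91423 to 240090 CPM, so the sorted cells carried their label. Some markers of other cells lay apart between diets. The 6 stem cell markers, such as Lgr5 and Olfm4, summed to 1350 to 1916 CPM in the control and 563 to 1146 CPM in the zinc deficient mice, and 7 proliferation markers, such as Mki67 and Top2a, to 127 to 153 against 76.3 to 99.0 CPM. Among tuft cell markers zinc deficient mouse 3 stood apart, with a sum of 318 CPM. Goblet cell (1590 to 5172 CPM), enterocyte (191 to 372 CPM), enteroendocrine (16 to 41.6 CPM) and immune markers (36.0 to 91.3 CPM, with Cd3e, Cd3g and Csf1r at 0) overlapped between diets, stromal and vessel markers summed to at most 1.48 CPM (Col1a1, Col1a2, Col3a1 and Acta2 at 0), and erythroid markers to at most 0.656 CPM.

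No Zfp-named gene of the set passed the test between diets with edgeR's quasi-likelihood test and Benjamini-Hochberg adjustment over all 10911 genes tested, in which all 198 were included. The smallest adjusted p was 0.101, for Zfp36l2. Over all genes tested, 0.147% were called higher and 0.257% lower on zinc depleted chow, so that 0 calls among 198 genes is near what the background gives. At an unadjusted p under 0.05, 0 of 198 were higher (background 4.43%) and 9 were lower (4.55%, background 6.04%). The 4 values per diet did not overlap for 0 genes in the higher direction (background 2.3%) and for 11 in the lower direction (5.56%, background 3.79%). DESeq2, run as another tool, called 1 gene, Zfp36l2, lower (adjusted p = 0.0342), where it called 61 genes higher and 73 lower of 18839. At an unadjusted p under 0.05 it had 8 of the 198 lower (4.04%), against 3.28% of all genes in that run. The DESeq2 run had no expression filter and included genes with few counts, so these shares are not over like genes.

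The fitted changes leaned to the lower side by a small amount. The median log2 fold change of zinc deficient over control was -0.06 for the 198 genes and -0.01 for all genes tested, and 119 of 198 (60.1%) were fitted below 0, against 50.7% of all genes tested. With library size as the only scaling, which moved the median of all genes to -0.37, 192 of 198 (97.0%) were below 0, and the median of the 198 was -0.08 relative to that of all genes. With each mouse left out in turn, the median of the 198 genes ran from -0.04 (without zinc deficient mouse 4) to -0.13 (without zinc deficient mouse 2), and it was -0.11 at a count minimum of 5. The median was -0.03 for KRAB genes (49 of 91 below 0) and -0.11 for the others (70 of 107 below 0), and these medians moved when a mouse was left out. They were -0.13 for KRAB genes and -0.15 for the others without zinc deficient mouse 2, and the KRAB median was above 0 without zinc deficient mouse 3 (0.05) and without control mouse 2 (0.01). The interval of the change, at 95%, lay within a 2-fold difference in either direction for 156 of the 198 genes, whereas it lay within 0.5 on the log2 scale for 27. The median count of a gene over the 8 mice ran from 16 to 816. Without control mouse 1, 5 genes were lower (2.53%, against 4.86% of all genes) and 3 higher at an unadjusted p under 0.05, and 108 of 198 were fitted below 0. Without zinc deficient mouse 3, 10 were lower (5.05%, against 6.34% of all genes) and 1 higher. Without zinc deficient mouse 2, 20 were lower (10.1%, against 6.31% of all genes).

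The count minimum in every mouse removes a gene that is almost absent on 1 diet, and so the Zfp-named genes that were tested without reaching it were looked at as well. There were 75 of them, 53 fitted below 0, with a median log2 fold change of -0.26. Over all genes tested 50.7% were below 0, with a median of -0.01. A gene can pass the expression filter through the diet in which it is higher, so this lean cannot be read as a response to the diet. None of the 75 was called by edgeR (smallest adjusted p = 0.388) or DESeq2. At an unadjusted p under 0.05 in edgeR, 1 was higher and 2 were lower (4.43% and 6.04% over all genes tested).

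**Figure D4:**
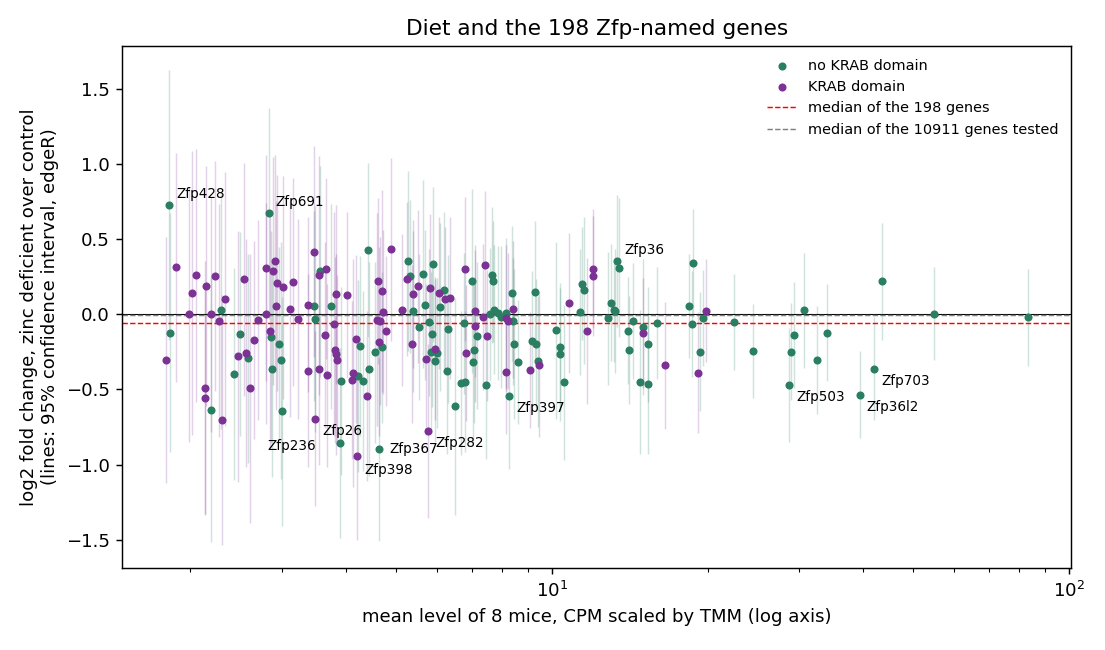
The log2 fold change of each of the 198 genes between diets with its 95% confidence interval (edgeR) is plotted against the mean level in CPM (log axis). The points scatter around a median of -0.06, and the genes at an unadjusted p under 0.05, which are named, all lie below 0, while Zfp36, Zfp428 and Zfp691 are named above it.

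Among the RNA-binding genes, the 3 members of the Zfp36 group had fitted changes of both signs. Zfp36l2 (ENSMUSG00000045817, chr17:84491132-84495382) stood at 54.3, 46.9, 44.0 and 41.1 CPM in the control mice and at 33.2, 32.6, 33.3 and 29.5 CPM in the zinc deficient mice. Every control mouse lay above every zinc deficient mouse, and the zinc deficient values were close together (46.6 ± 5.65 against 32.2 ± 1.82 CPM, SD, n = 4). The log2 fold change was -0.54 with an SE of 0.14 (edgeR adjusted p = 0.101), -0.46 without control mouse 1, and its adjusted p ran from 0.0342 to 0.323 over the alternatives.

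Zfp36l1 (ENSMUSG00000021127, chr12:80154528-80160006), whose fingers differ from those of Zfp36l2 in only 4 of 58 residues, had 44.2, 36.2, 27.0 and 36.5 CPM in the control and 22.8, 36.2, 30.2 and 27.8 CPM in the zinc deficient mice. The diets overlapped (log2 fold change -0.31, SE 0.17, edgeR adjusted p = 0.575). The change was -0.19 without control mouse 1 and -0.20 without zinc deficient mouse 1. Zfp36 itself (tristetraprolin, ENSMUSG00000044786, chr7:28076209-28079710) had 16.2, 10.8, 10.3 and 9.42 CPM in the control and 18.7, 10.6, 16.1 and 14.8 CPM in the zinc deficient mice. Its values overlapped too, and its fitted log2 fold change was 0.35 (SE 0.21, edgeR adjusted p = 0.600), but 0.56 without control mouse 1 and -0.04 when libraries were scaled by their size alone. The difference between the changes of these 3 genes was not tested.

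Of 16 genes listed for roles in RNA decay, RNA binding or translation, 14 were among the 198 and tested, and 7 of the 14 were fitted below 0, with a median log2 fold change of -0.01. Zfp36l2 was the only gene of the list at an unadjusted p under 0.05. Zfp598 had 41.3, 29.4, 28.4 and 22.4 CPM in the control and 34.5, 31.8, 23.8 and 34.2 CPM in the zinc deficient mice, and its 95% interval ran from -0.36 to 0.41 on the log2 scale. Zfp706 had 40.3 CPM in control mouse 1 and 58.44 to 60.03 CPM in the other control mice, against 51.8 to 57.5 CPM in the zinc deficient mice. Its interval ran from -0.31 to 0.31 and that of Zfp106 from -0.34 to 0.30. These 3 abundant genes thus had intervals well inside a 2-fold difference.

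The partners of the Zfp36 group were measured in the same mice. The 23 genes were listed for deadenylation, decapping, decay or its regulation, and hold no Zfp-named gene. Of these, 18 were fitted below 0 (against 50.7% of all genes tested), with a median log2 fold change of -0.08. None was called by edgeR or DESeq2, and Cnot10, a subunit of the CCR4-NOT complex, was at an unadjusted p under 0.05 (13.5, 11.9, 12.2 and 15.7 CPM in the control against 9.60, 6.95, 10.1 and 11.1 CPM in the zinc deficient mice, edgeR adjusted p = 0.349).

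Zfp703 (ENSMUSG00000085795, chr8:27467135-27471489) and Zfp503 (ENSMUSG00000039081, chr14:22033983-22039669) were both among the 9 genes at an unadjusted p under 0.05. Zfp703 had 56.3, 42.4, 44.1 and 45.6 CPM in the control and 41.1, 42.1, 38.0 and 25.9 CPM in the zinc deficient mice. The groups did not overlap, but control mouse 2 and zinc deficient mouse 2 were almost level (log2 fold change -0.36, SE 0.16, edgeR adjusted p = 0.444). Zfp503 had 42.6, 30.2, 31.0 and 29.5 CPM in the control and 19.2, 33.6, 22.3 and 21.8 CPM in the zinc deficient mice. Zinc deficient mouse 2 lay above 3 of the 4 control mice (log2 fold change -0.47, SE 0.18, edgeR adjusted p = 0.342). The log2 fold change of Zfp703 was -0.22 without zinc deficient mouse 4, which is over 1.5 times smaller, and -0.26 without control mouse 1, and that of Zfp503 was -0.33 without control mouse 1.

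Of 34 genes listed as regulators of chromatin and transcription without a KRAB domain, 25 were among the 198. With Zfp532, tested although it did not reach the minimum, 20 of 26 were fitted below 0, with a median log2 fold change of -0.16, none was called by edgeR or DESeq2 and Zfp703 was the only one at an unadjusted p under 0.05. Zfp148, a factor that binds GC-rich promoters, had 27.2, 27.6, 25.8 and 25.7 CPM in the control and 25.0, 19.2, 25.2 and 20.3 CPM in the zinc deficient mice. These values did not overlap, but differed little (log2 fold change -0.24, edgeR adjusted p = 0.605). Its relative Zfp281 was at 5.61, 3.20, 3.15 and 2.96 CPM in the control and at 5.83, 3.92, 5.74 and 4.86 CPM in the zinc deficient mice (log2 fold change 0.43, edgeR adjusted p = 0.641), with overlapping groups.

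The 3 KRAB genes at an unadjusted p under 0.05 were Zfp398, Zfp282 and Zfp26. Zfp398 (ENSMUSG00000062519, chr6:47812595-47850471) had the largest fitted difference of the 198 genes, with 6.36, 6.64, 4.79 and 4.34 CPM in the control and 2.37, 2.53, 3.51 and 3.09 CPM in the zinc deficient mice. All control mice lay above all zinc deficient mice (log2 fold change -0.94, SE 0.27, edgeR adjusted p = 0.153), on counts of 20 to 118 per mouse.

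Zfp282 (ENSMUSG00000025821, chr6:47854138-47887594) starts 3666 bp after the end of Zfp398 on the same strand. It had 9.76, 8.52, 5.04 and 5.61 CPM in the control and 4.10, 4.67, 5.58 and 2.71 CPM in the zinc deficient mice, with zinc deficient mouse 3 above control mouse 3 (log2 fold change -0.78, SE 0.28, edgeR adjusted p = 0.282). The other 6 genes of the group at chr6:47812595-48600161 (Zfp212, Zfp956, Zfp777, Zfp746, Zfp467 and Zfp775) had an unadjusted p over 0.05, and 6 of the 8 genes were fitted below 0. Zfp26 (ENSMUSG00000063108, chr9:20339745-20371498) had 4.58, 5, 3.28 and 4.34 CPM in the control and 2.81, 2.27, 3.03 and 2.53 CPM in the zinc deficient mice, without overlap (log2 fold change -0.69, SE 0.28, edgeR adjusted p = 0.363).

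Zfp367, Zfp236 and Zfp397, which have C2H2 fingers and no KRAB domain by the profile search, were the remaining 3 of the 9. Zfp367 (chr13:64280832-64301091) had 6.90, 5.08, 4.03 and 8.05 CPM in the control and 3.34, 3.66, 3.99 and 1.96 CPM in the zinc deficient mice. Control mouse 3 was only just above zinc deficient mouse 3 (log2 fold change -0.90, SE 0.29, edgeR adjusted p = 0.234). Zfp236, with 29 fingers, had 7.60, 4.59, 4.29 and 3.49 CPM in the control and 3.45, 2.53, 3.03 and 2.15 CPM in the zinc deficient mice, again without overlap. Its log2 fold change of -0.86 (SE 0.30, edgeR adjusted p = 0.276) was -0.56 without control mouse 1, more than 1.5 times smaller. Zfp397, named after its values were seen, had 9.79 ± 1.34 against 6.73 ± 2.00 CPM (log2 fold change -0.55, edgeR adjusted p = 0.408), with overlapping groups. Without zinc deficient mouse 4 its change was -0.36, over 1.5 times smaller.

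**Figure D5:**
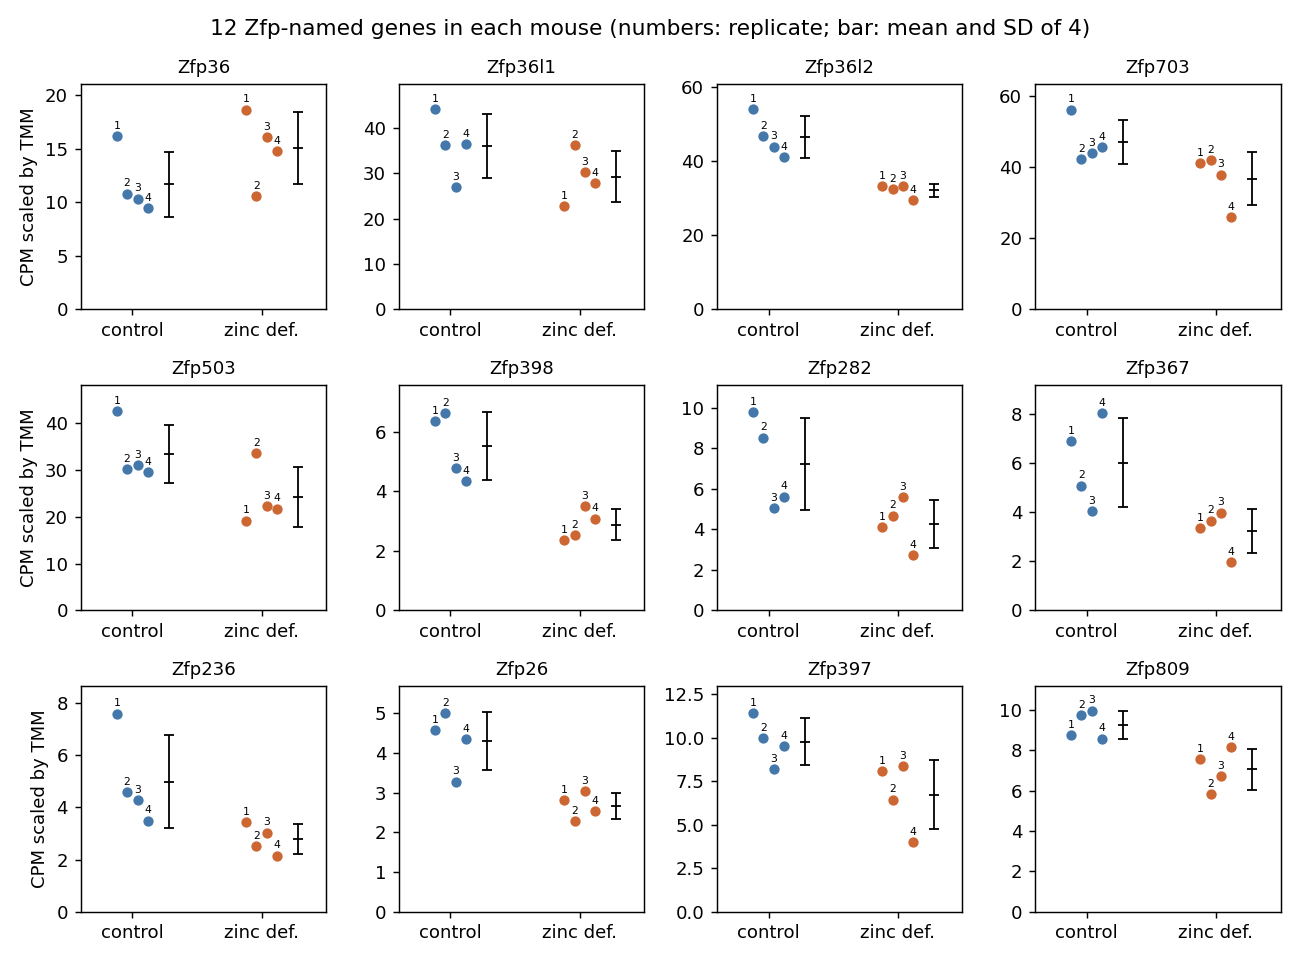
Levels in CPM scaled by TMM are plotted for 12 genes in each mouse, with the replicate number above each point and the mean and SD of 4 mice beside it; each axis starts at 0. The diets do not overlap for Zfp36l2, Zfp703, Zfp398, Zfp367, Zfp236, Zfp26 and Zfp809, and overlap for Zfp36, Zfp36l1, Zfp503, Zfp282 and Zfp397.

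These differences stood beside markers that differed between diets. Of the 8 Paneth cell markers, all were fitted above 0 with a median log2 fold change of 0.49, and 3 were higher at an unadjusted p under 0.05. Reg3g, an antibacterial lectin, was called by edgeR (585, 900, 687 and 775 CPM in the control against 2060, 2466, 1481 and 2911 CPM in the zinc deficient mice, adjusted p = 0.0071), and Reg3g and Mptx2 by DESeq2. Of the stem cell markers, 5 of 6 were lower at an unadjusted p under 0.05 and all 6 were fitted below 0, with 0 called by edgeR and Olfm4 called by DESeq2 (Olfm4 at 1135, 1303, 1226 and 1715 CPM in the control against 956, 836, 536 and 443 CPM in the zinc deficient mice). Of the proliferation markers, 6 of 7 were lower at an unadjusted p under 0.05, and Top2a, the topoisomerase of dividing cells, was called (44.5, 40.9, 29.5 and 39.8 against 20.1, 10.5, 23.1 and 14.5 CPM, edgeR adjusted p = 0.0229). No marker of these lists was at 0. Their part in the values of the zinc finger genes was not tested.

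KRAB genes listed for a possible role at retroelements or imprinted loci were measured at low levels, and such a role was not checked for each gene. Of the 20 genes listed, 10 were among the 198. Of the 12 tested, none was called by edgeR or DESeq2 and 7 were fitted below 0 (median log2 fold change -0.03). Zfp809, which recognises the primer binding site of murine leukaemia viruses, had 8.74, 9.75, 9.96 and 8.58 CPM in the control and 7.55, 5.81, 6.70 and 8.14 CPM in the zinc deficient mice. The diets did not overlap (log2 fold change -0.39, SE 0.19, edgeR adjusted p = 0.509). Zfp445, which protects imprints, had 26.4, 26.1, 15 and 19.1 against 18, 18.9, 16.5 and 13.2 CPM, with overlap (log2 fold change -0.39, edgeR adjusted p = 0.504). Zfp57, another guardian of imprints, was at 0 counts in all 8 mice, as were Zfp708 and Zfp600, which allows up to 0.237 to 0.351 CPM depending on the mouse. Zfp456, which did not reach the count minimum, was at 0.809, 0.738, 0.378 and 0.741 CPM in the control and at 2.05, 1.64, 1.20 and 1.22 CPM in the zinc deficient mice (edgeR adjusted p = 0.388). As a gene can pass the expression filter through the diet in which it is higher, this difference cannot be read as a response to the diet.

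The machinery that KRAB proteins recruit was well represented, with all 29 genes listed tested. Of these, 23 were fitted below 0 with a median log2 fold change of -0.21, 6 were lower at an unadjusted p under 0.05 (against 50.7% below 0 and 6.04% lower over all genes tested), edgeR called none and DESeq2 called 1, Uhrf1. Trim28, the corepressor that binds the KRAB domain, had 62.7, 66.6, 63.0 and 66.4 CPM in the control and 53.0, 39.9, 55.8 and 57.5 CPM in the zinc deficient mice, without overlap (log2 fold change -0.33, edgeR adjusted p = 0.421). Uhrf1, which guides the maintenance of DNA methylation through the cell cycle, had 16.9, 11, 11.7 and 15.9 against 10.4, 4.67, 8.06 and 5.61 CPM (log2 fold change -0.95, edgeR adjusted p = 0.0937). The others were Dnmt1, the maintenance DNA methyltransferase (-0.58), Suv39h1, a histone H3 lysine methyltransferase (-0.87), Mta1 of the NuRD complex (-0.67) and the heterochromatin protein Cbx3 (-0.65). Setdb1, the methyltransferase that Trim28 recruits, was at a log2 fold change of 0.13 (edgeR unadjusted p = 0.620). Uhrf1 and Dnmt1 are used by dividing cells, and the proliferation markers were lower in the same mice (6 of 7 at an unadjusted p under 0.05, Top2a called); their part in these values was not tested.

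Along the chromosomes, the groups of neighbouring genes were fitted to either side. In the group of 14 on chromosome 17, 7 were fitted below and 7 above 0 (median log2 fold change 0.00), and in the group of 9 on chromosome 13, 5 below and 4 above. At chr7:126832057-127837203, 10 of 11 genes, from Zfp553 to Zfp696, were fitted below 0 with a median of -0.20. At chr7:23781314-24927712, 5 of 7 genes, among them Zfp428, were fitted above 0 with a median of 0.22. None of these genes was called, and no difference between groups was tested.

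By finger number, the lowest median belonged to the genes without a C2H2 match. The median log2 fold change was -0.40 for the 8 genes without a C2H2 match (6 below 0), which include Zfp36l2, Zfp503 and Zfp703. It was -0.03 for 29 genes with 1 to 4 fingers, -0.06 for 66 genes with 5 to 9, -0.07 for 60 genes with 10 to 14 and -0.05 for 35 genes with 15 or more. These 4 medians lie within 0.05 of each other, and no difference between the classes was tested.

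The remaining genes without overlap between diets were Zfp623, Zfp799 and Zfp943, with log2 fold changes between -0.45 and -0.37 and edgeR adjusted p from 0.507 to 0.578. On the higher side, Zfp428 (1.41 ± 0.553 against 2.23 ± 0.758 CPM) and Zfp691 (2.19 ± 0.544 against 3.47 ± 0.998 CPM) had the largest fitted log2 fold changes, 0.73 and 0.67, with overlapping groups and edgeR adjusted p of 0.596 and 0.506.

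Other families of zinc finger genes and the genes of zinc handling give the setting. None of their genes was called by edgeR, and DESeq2 called 1, Zbtb12. The median log2 fold change was -0.09 for 35 Zbtb genes (21 below 0), -0.23 for 16 Zkscan and Zscan genes (15 below 0), -0.02 for 13 Zc3h genes of the CCCH type (7 below 0), -0.21 for 12 Klf genes (11 below 0), -0.16 for 12 Zmym, Zmynd, Zmiz and Zzz genes (11 below 0) and 0.05 for 20 Zdhhc genes (9 below 0). For comparison, 50.7% of all genes tested were fitted below 0. The families were taken by symbol, and the Zbtb genes below 0 include Zbtb8os (-0.25), an opposite-strand gene that is not a Zbtb zinc finger gene. At an unadjusted p under 0.05, 2 Zbtb genes were higher, and 1 gene each of the Zbtb, Zkscan and Zscan, Zc3h and Klf families was lower. Of 22 zinc handling genes tested, 4 were higher and 1 lower at an unadjusted p under 0.05. The shares over all genes tested were 4.43% higher and 6.04% lower. The lower gene was Slc39a5 (log2 fold change -0.68, edgeR adjusted p = 0.141). Among the higher genes was Mtf1, the zinc-sensing transcription factor that is itself a C2H2 protein. Mtf1 was at 6.47, 8.61, 6.81 and 6.46 CPM in the control and 11.7, 8.71, 8.77 and 9.45 CPM in the zinc deficient mice (log2 fold change 0.44, edgeR adjusted p = 0.441).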

How the data were processed

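Paneth cells of the small intestine of 4 control and 4 zinc deficient mice were sorted by FACS, and libraries were made with a stranded mRNA kit (per the labels). The submitters' processing notes name FastQC 0.12.0, STAR 2.7.0a, DESeq2 and mm39, but what counted the reads, whether by strand, and how reads matching several genes were treated is not given in the sources used here. Whole, raw counts per Ensembl gene identifier were deposited for the 8 mice, not normalized.

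Gene names, exon lengths and coding sequences were taken from GENCODE M39 on GRCm39, where 54749 of 55414 identifiers were found. TPM were computed from the counts and summed exon lengths, and CPM with TMM scaling. The comparison of diets used edgeR 4.0.16 under R 4.3.3 (TMM, filterByExpr, robust quasi-likelihood test, Benjamini-Hochberg over 10911 genes, threshold 0.05), with DESeq2 1.42.0 as an alternative. The edgeR test was also run on simulated counts, and the outcome of that run is not given here. C2H2 fingers were matched as C-X(2 to 4)-C-X(12)-H-X(3 to 5)-H and CCCH fingers as C-X(8)-C-X(5)-C-X(3)-H in translated coding sequences. KRAB domains were searched with a residue pattern and with a profile built by pyhmmer 0.12.3 from Zfp809 (E-value threshold 1e-06, at most 5 rounds). Identity is 100% less the edit distance over the longer coding sequence. Wilson intervals and the floor of 3 counts cover counting error only.

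The genes, lists and tests were chosen with earlier results of these data known. Named were the 10 genes with the highest TPM, the 5 with the largest fall among those without overlap between diets, members of the lists, the extremes of minimum count, spread and finger number, and groups of 4 or more neighbours within 1 Mb; Zfp397, Zfp623, Zfp428 and Zfp691 were named after their values were seen, and 1 listed gene is not reported here. Alternatives covered scaling, filter, test, count minimum, KRAB rule, a replicate block, and omission of each mouse in turn.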

Additional observations from a re-analysis of the deposited data

Results flagged for a closer look

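In 62 groups of 4 mice examined, 3 values stood apart from the other 3 mice of their diet by Dixon's criterion, and chance gives about 1 in 20. Zfp503 was at 42.6 CPM in control mouse 1, where the other control mice lay between 29.5 and 31.0 CPM. Zfp706 was at 40.3 CPM in control mouse 1, below the 58.44 to 60.03 CPM of the other control mice. Zfp664 was at 26.6 CPM in control mouse 4, below the 37.1 to 39.1 CPM of the other control mice.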

How the results depend on the processing

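No gene of the 198 was called in any edgeR alternative run, and DESeq2 called 1 lower. The genes lower at an unadjusted p under 0.05 numbered 9, and 38 with library size as the only scaling (19.2% of the 198, against 13.5% of all genes), where the median log2 fold change of all genes tested was -0.37 and that of the 198 genes was -0.45. The log2 fold change of Zfp36 was 0.35, and reversed at -0.038 with library size only. The lower genes numbered 14 without the expression filter (7.07%, against 5.16% of all genes, which there include genes with few counts). They numbered 5 to 20 with each mouse left out, when 0 to 3 genes were higher. The 5 came without control mouse 1, the 20 without zinc deficient mouse 2, and 14 without control mouse 3 (7.07%, against 6.40% of all genes). Over all genes tested, 16 were called higher and 28 lower. These counts were 5 and 6 with library size only, 107 and 144 without the filter and 61 and 73 with DESeq2, and 11 were lower without the robust option; with each mouse left out, 5 to 27 were higher and 3 to 20 lower, the latter count moving by over 1.5 times without any 1 mouse except control mouse 3. The replicate number as a block (replicate block) left 0 of the 198 called and 13 lower at an unadjusted p under 0.05 (6.57%, against 6.17% of all genes). Same-numbered mice of the 2 diets correlated at 0.005 to 0.114, and pairs with unlike numbers at -0.211 to 0.183. These few correlations do not settle whether the numbers pair the mice. A minimum of 5 counts gave 253 genes, 11 of them lower, and of 20 counts 149 genes, 8 of them lower, at an unadjusted p under 0.05. The share with a KRAB domain was 35.4% by pattern and 46.0% by profile. The cause of the other changes between settings was not tested.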
